A study of Homo sapiens with 16 samples.

Results

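The major histocompatibility complex (MHC) was taken as the stretch of chromosome 6 from 29.6 to 33.4 Mb (hg19), and every listed ChIP-seq peak in it was described, whatever its width. The stretch was divided by position into a class I part (29.6 to 31.5 Mb), a class III part (31.5 to 32.3 Mb) and a class II part (32.3 to 33.4 Mb). It held 238 of the 179689 peaks on the standard chromosomes in 8 peak lists. The lists were made from human epithelial ovarian cancer cell lines. H3K27ac was profiled in untreated A2780 cells, in their cisplatin-resistant derivative A2780cis, in untreated CAOV4 cells and in the resistant derivative CAOV4cis. H3K27ac was also profiled in A2780 cells after 1 week of MBD3 knockdown with shMBD3.26 or with shMBD3.232, and H3K9ac in A2780 and A2780cis cells. Per the study's methods both resistant lines were kept in medium with cisplatin (cPt), CAOV4cis had been raised from CAOV4 by rising cPt doses, and the knockdown cells were sorted for the GFP of the hairpin vector. By the same methods the hairpins were induced with doxycycline in Tet-on cells selected with G418. Untransduced A2780 cells served as the reference for both hairpins here. Transduction, selection, doxycycline and sorting therefore cannot be told apart from the knockdown. In the resistant lines, exposure to cPt in culture likewise cannot be told apart from resistance. Each condition had 1 library, so that no difference below has a replicate check, and intervals in brackets are 95% Wilson intervals that cover counting error only. The lists give the position and width of each peak and no signal, so that presence, number and width are the quantities measured. How many reads lie behind a peak is not known.

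The MHC is among the most gene-dense stretches of the human genome. Its class I genes, such as HLA-B and HLA-C, encode the heavy chains that present peptides from inside the cell to cytotoxic T cells, and MICA and MICB encode stress ligands of natural killer cells. The class II part encodes the HLA-DR, HLA-DQ and HLA-DP chains, which professional antigen presenting cells use to show peptides to helper T cells, together with the peptide transporter genes TAP1 and TAP2 and the immunoproteasome subunits PSMB8 and PSMB9. The class III part between them holds genes of other kinds, among them TNF and LTA (cytokines), complement genes, the stress chaperone HSPA1A, and EHMT2, a histone H3 lysine 9 methyltransferase. Housekeeping genes such as TUBB (tubulin), ABCF1 and RPS18 (a ribosomal protein) lie among them. In RefSeq gene order (GRCh38.p14, used for names and order only) 142 protein-coding genes run from HLA-F to DAXX, and all 48 MHC genes chosen for their roles are in that run. H3K27ac marks active promoters and enhancers, and H3K9ac marks mainly active promoters. MBD3 is a subunit of the NuRD complex, which removes histone acetylation and remodels nucleosomes. No hg19 gene positions were used here, so that the peaks below are named by position and not by gene.

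The sequences that the study lists as guides of the hairpins are shown because the lists of the hairpin cells, which share the target gene, differed in the MHC. Both are 22 nt long and are printed as the study lists its guides. No MBD3 transcript was used here, so that the strand each sequence matches was not checked and no seed is marked.
shMBD3.26: aacaaggtcaagagcgacccgc
shMBD3.232: ttgctcatcagcatcttgcccg

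The shMBD3.26 list stood apart from the other 7 lists in the MHC. It held 138 of the 238 peaks. The A2780 H3K27ac list held 16 peaks, A2780cis 31, shMBD3.232 26, CAOV4 6 and CAOV4cis 9, and the H3K9ac lists held 4 in A2780 and 8 in A2780cis. Over the whole listed genome outside the MHC, its peaks covered 3.11%, against 3.12% to 3.93% in the other H3K27ac lists, although single stretches outside the MHC also stood out in it. Whether biology, the library or the making of that list set its MHC peaks was not tested. Counts of merged regions, the number of lists per region and the empty stretches are given with and without it. Shares of the merged regions that follow a pattern across lists were computed with all 8 lists only.

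**Figure D1:**
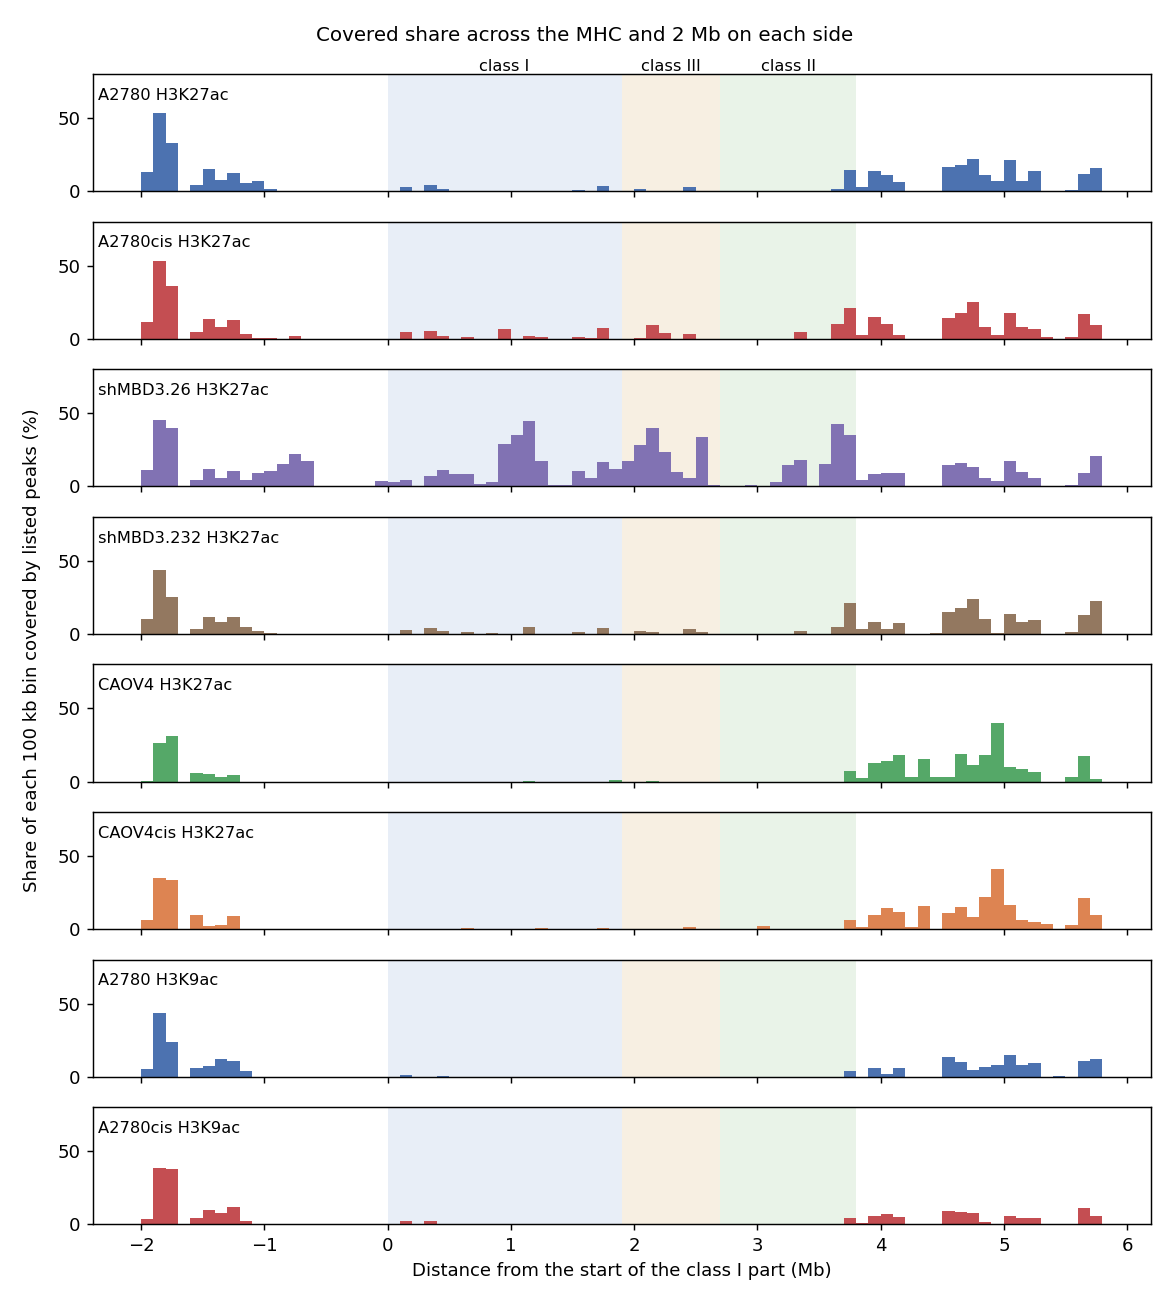
Share of each 100 kb bin covered by listed peaks (y axis, %) in the 8 lists along the MHC (shaded by part) and 2 Mb on each side (x axis, distance from the start of the class I part in Mb). All lists have peaks at both ends of the plotted stretch, while within the MHC the shMBD3.26 list alone has bins above 40% covered.

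In 7 of the 8 lists the MHC was covered by listed peaks far less than the rest of the listed genome. Whether biology, the libraries or the making of the lists, alignment included, set this low share was not tested. A2780 H3K27ac peaks covered 34.4 kb of the MHC, or 0.905%, against 3.93% outside it, a ratio of 0.230. In A2780cis 83.4 kb was covered, 2.19% against 3.73%, a ratio of 0.588. The shMBD3.232 peaks covered 55.8 kb, 1.47% against 3.21%. The CAOV4 lists were the emptiest of the H3K27ac lists, with 9.2 kb (0.242%) in CAOV4 and 10.8 kb (0.284%) in CAOV4cis, against 3.12% and 3.30% outside. H3K9ac covered 5.4 kb (0.142%) in A2780 and 9.2 kb (0.242%) in A2780cis, against 2.20% and 2.17% outside. In shMBD3.26 cells the order was the opposite: 508.8 kb was covered, 13.4% of the MHC against 3.11% outside, a ratio of 4.31.

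Farther from the MHC every list had peaks, while the 1 Mb directly before it was nearly empty in all but 1 list. In the 1 Mb after its end the covered share ranged from 4.24% in A2780 H3K9ac to 10.4% in CAOV4 H3K27ac, and shMBD3.26 (7.50%) lay below A2780 (9.10%). From 1 to 2 Mb before its start the share was 15.1% in A2780, 14.3% in shMBD3.26 and 12.02% in shMBD3.232. In the last 1 Mb before the start it was 6.98% in shMBD3.26, 0.18% in A2780, 0.24% in A2780cis and 0.06% with shMBD3.232, and no peak was listed there in CAOV4, CAOV4cis or either H3K9ac list. The shMBD3.26 list thus stood apart in the 1 Mb before the class I part and not in the 1 Mb after the class II part. Its peaks before the class I part did not run on into the MHC without a break. From chr6:29000001 to 29500000 no list had a peak.

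By parts, the class II part was the most covered in every list but shMBD3.26. This rank rests on the last 50 kb of the class II part, described below, and does not describe that part as a whole. From chr6:32300001 to 33200000 the A2780 lists of both marks and the CAOV4 list had no peak, while each of the other lists had some. A2780 H3K27ac peaks covered 0.726% of class I, 0.525% of class III and 1.49% of class II. In A2780cis the same shares were 1.61%, 2.15% and 3.24%, each higher than in A2780. With shMBD3.232 they were 1.09%, 0.925% and 2.51%. CAOV4 had 0.0842%, 0.0500% and 0.655%, and CAOV4cis 0.0737%, 0.175% and 0.727%. H3K9ac had no listed peak in class III in either line and covered 0.0737% of class I and 0.364% of class II in A2780, against 0.253% and 0.4% in A2780cis. In shMBD3.26 cells class III led with 19.9%, and class I (11.6%) and class II (11.8%) were close to each other.

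**Figure D2:**
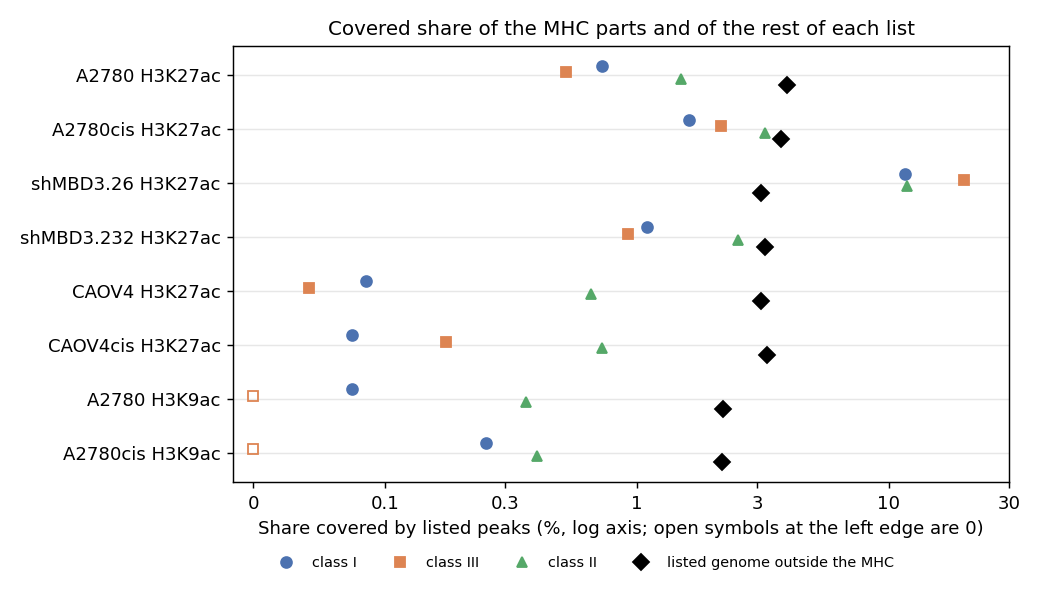
Share covered by listed peaks (x axis, %, log axis, with 0 drawn as an open symbol at the left edge) for the 3 MHC parts and for the listed genome outside the MHC in each of the 8 lists (rows). In every list but shMBD3.26 all 3 parts lie to the left of the genome outside the MHC.

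In 7 of the 8 lists most of the class II coverage came from the end of that part that is far from class III. The last 50 kb of the MHC held 14.8 of the 16.4 kb covered in class II in A2780 (90.2%), 21 of 35.6 kb in A2780cis (59.0%), 21 of 27.6 kb with shMBD3.232 (76.1%), all 7.2 kb in CAOV4 and 6.2 of 8 kb in CAOV4cis (77.5%). For H3K9ac it held all 4 kb in A2780 and 4 of 4.4 kb in A2780cis (90.9%). With shMBD3.26 it held 31.8 of 130 kb (24.5%). Most of this edge was a pair of neighboring regions. The region chr6:33374001-33390800 had a peak in every list but CAOV4cis, with covered lengths of 11.2 kb in A2780, 10.2 kb in A2780cis, 10.8 kb with shMBD3.232, 16.2 kb with shMBD3.26 and 4.2 kb in CAOV4, and H3K9ac over 3.0 kb in A2780 and 4.0 kb in A2780cis. The region chr6:33391201-33402000, which crosses the end of the MHC, had an H3K27ac peak in all 6 H3K27ac lists, from 3.0 kb in CAOV4 to 9.4 kb with shMBD3.26, and an H3K9ac peak of 1.0 kb in A2780 alone. It was the only 1 of 140 merged MHC regions with a peak in every H3K27ac list (0.714%, against 10.9% of merged regions over all chromosomes), and none had a peak in all 8 lists (8.75% over all chromosomes). The 140 include 101 regions with a shMBD3.26 peak alone (72.1%, against 5.66% over all chromosomes), which lowers the MHC share.

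Merging peaks of the 8 lists that shared at least 1 bp gave 140 regions, 62 in class I, 45 in class III and 33 in class II. Of these, 101 had a peak in the shMBD3.26 list alone (72.1%, against 5.66% over all chromosomes), 44 of them wider than 2 kb. Without that list 48 regions were left, 22 in class I, 12 in class III and 14 in class II. Of these 48, 26 had a peak in 1 list, 10 in 2 lists and 12 in 3 or more. Only 2 of the 140 regions had no shMBD3.26 peak. They were a CAOV4cis peak of 0.2 kb at chr6:31543001-31543200 and an A2780cis H3K9ac peak of 0.2 kb at chr6:32525401-32525600. The counts among the 48 regions and of regions without a shMBD3.26 peak were not made over all chromosomes. They describe the MHC alone and cannot be read as unusual.

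**Figure D3:**
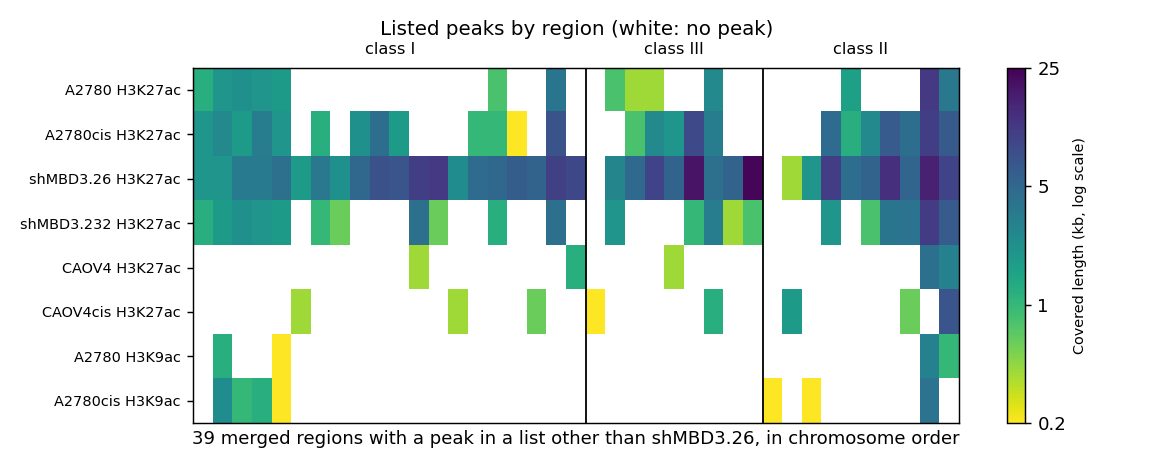
Covered length (color, kb, log scale, white where no peak is listed) of the 39 MHC regions with a peak in a list other than shMBD3.26 (columns, in chromosome order, with lines between the parts) in the 8 lists (rows). The shMBD3.26 row is filled in all but 2 columns, the 4 H3K27ac lists from A2780 cells share the first 5 class I regions, and the last 2 class II regions are filled in 7 lists each.

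A small set of regions recurred among the A2780 lists. A peak was listed in A2780, A2780cis and both hairpin lists in 10 of the 140 regions (7.14%, against 18.2% over all chromosomes). Of these 10, 7 were in class I, 1 in class III and 2 in class II. The 140 include 101 regions with a shMBD3.26 peak alone (72.1%, against 5.66% over all chromosomes). They lower the MHC share, so that it cannot be read as fewer recurring regions than elsewhere. Among the recurring regions in class I was chr6:29719401-29722000, which also carried H3K9ac in both lines. H3K27ac covered 2.0 kb there in A2780, 2.6 kb in A2780cis, 2.0 kb with shMBD3.26 and 1.8 kb with shMBD3.232, and H3K9ac 1.2 kb in A2780 and 2.4 kb in A2780cis. The widest of the recurring class I regions, chr6:31364001-31374000, was covered over 3.8 kb in A2780, 7.2 kb in A2780cis, 4.2 kb with shMBD3.232 and 10 kb with shMBD3.26. Its lists differ in how much of it was covered and not in whether it was listed. In class III the recurring region was chr6:32094801-32099000, with 2.6 kb in A2780, 3.2 kb in A2780cis and with shMBD3.232, 4.2 kb with shMBD3.26 and 1.2 kb in CAOV4cis. None of the class I regions of this set had a peak in CAOV4 or CAOV4cis.

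The list of the resistant A2780cis cells, which were kept in cPt, held more H3K27ac peaks in the MHC than the A2780 list. For each comparison, peaks of both lists that overlapped were merged, and a region was called gained where it had a peak in the second list alone and lost where it had one in the first list alone. Of 31 regions, 13 were common, 16 were gained in A2780cis (51.6%, 34.8 to 68.0) and 2 were lost (6.45%, 1.79 to 20.7). Over all chromosomes 17.9% of regions were gained and 38.1% were lost, so that the share over all chromosomes lies below the MHC interval for gains and above it for losses. Class I had 6 gained regions and 0 lost, class III 4 gained and 2 lost, and class II 6 gained and 0 lost. Of 18 regions over 2 kb, 9 were gained (50%, 29.0 to 71.0, against 10.2% over all chromosomes) and 0 were lost (19.5% over all chromosomes). Common regions were also wider in A2780cis, by a median ratio of 1.30 (10 of 13 wider), against 1.09 over all chromosomes (7919 of 14238 wider).

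The gained regions lay in all 3 parts. The widest, chr6:31797001-31804000 in class III, covered 7.0 kb in A2780cis, and the larger shMBD3.26 region around it (chr6:31788801-31808000) held 8.6 kb of A2780cis peaks, 19.2 kb of shMBD3.26 peaks, 1.0 kb of shMBD3.232 peaks and none in A2780. In class II the peak at chr6:32935801-32940400 covered 4.6 kb, that at chr6:33360001-33364400 4.4 kb and that at chr6:33288201-33291600 3.4 kb, and each had a peak with both hairpins as well. In class I the peak at chr6:30582401-30586800 covered 4.4 kb, and its only partner in another list was a shMBD3.26 peak of 7.6 kb. The 2 lost regions were narrow A2780 peaks in class III, and both overlapped shMBD3.26 peaks.

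H3K9ac in the same pair rested on few peaks. Of 9 regions, 3 were common, 5 were gained in A2780cis (55.6%, 26.7 to 81.1, against 21.7% over all chromosomes) and 1 was lost (11.1%, 1.99 to 43.5, against 46% over all chromosomes). None of the gained or lost H3K9ac regions was wider than 2 kb, where 15.2% of regions were gained and 20.7% lost over all chromosomes, but the MHC had only 2 regions of that width. In class I, H3K9ac was listed in A2780cis but not in A2780 at chr6:29933401-29934400 (1.0 kb) and chr6:29943601-29944800 (1.2 kb), where H3K27ac was listed in both lines. The other 3 gained regions were 0.2 kb wide each. The rise in the covered share, from 0.142% to 0.242%, was 3.8 kb in all.

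Most H3K27ac peaks of the MHC had no H3K9ac peak in the same line. Of the 16 A2780 H3K27ac peaks, 4 overlapped an H3K9ac peak of the same line (25%, 10.2 to 49.5), against 45.0% over all chromosomes. In A2780cis 5 of 31 did (16.1%, 7.09 to 32.6), against 52.9%. Conversely, all 4 H3K9ac peaks of A2780 and 6 of the 8 of A2780cis overlapped an H3K27ac peak of their line, against 66.6% and 82.4% over all chromosomes. The 2 without H3K27ac in A2780cis were peaks of 0.2 kb in class II. With 4 and 8 peaks these shares have wide intervals (51.0 to 100 and 40.9 to 92.9). The genome-wide shares lie inside those intervals in both lines, and inside the interval of the A2780 H3K27ac peaks, but above that of the A2780cis H3K27ac peaks.

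The CAOV4 pair had little H3K27ac in the MHC before or after resistance. Of 13 regions, 1 was common, 8 were gained in CAOV4cis (61.5%, 35.5 to 82.3, against 33.8% over all chromosomes) and 4 were lost (30.8%, 12.7 to 57.6, against 29.1% over all chromosomes). All 8 gained peaks were at most 2.0 kb wide. Of 2 regions over 2 kb, 0 were gained and 1 was lost, a CAOV4 peak of 4.2 kb at chr6:33384001-33388200 (over all chromosomes 15.2% were gained and 14.1% lost at this width). In class I the 2 CAOV4 peaks were replaced by 3 others, none of them at the same position, and the covered length went from 1.6 to 1.4 kb. Of the 140 merged regions, 1 was gained in both resistant lines (0.714%, against 0.49% over all chromosomes). The 140 include 101 regions with a shMBD3.26 peak alone, which lowers this share, and it rests on 1 region. That region was chr6:33358201-33364400 in class II, with 4.4 kb in A2780cis and 0.6 kb in CAOV4cis, and it was also listed with shMBD3.232 (4.0 kb) and shMBD3.26 (5.2 kb). None was lost in both (0.689% over all chromosomes).

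Between the sensitive lines, the MHC peaks of A2780 were mostly missing in CAOV4. Of 20 regions, 2 were common, 14 were found in A2780 alone (70.0%, 48.1 to 85.5, against 44.3% over all chromosomes) and 4 in CAOV4 alone (20%, 8.07 to 41.6, against 31.2% over all chromosomes). The common regions were those at the class II edge. All 8 class I regions of A2780 and all 4 of class III were missing in CAOV4. Of 5 regions over 2 kb, 0 were found in CAOV4 alone (23.7% over all chromosomes) and 3 in A2780 alone (60%, 23.1 to 88.2, against 31.4%). These were chr6:32095201-32097800 (2.6 kb, class III), chr6:31367001-31369400 (2.4 kb, class I) and chr6:29932001-29934200 (2.2 kb, class I). In the resistant lines, 28 of 37 regions were found in A2780cis alone (75.7%, 59.9 to 86.6, against 32.2% over all chromosomes), 6 in CAOV4cis alone (16.2%, 7.65 to 31.1, against 41.6% over all chromosomes) and 3 in both.

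With shMBD3.232 the MHC gained more regions than it lost. Of 29 regions, 12 were common with A2780, 14 were gained (48.3%, 31.4 to 65.6, against 10.9% over all chromosomes) and 3 were lost (10.3%, 3.58 to 26.4, against 40.1% over all chromosomes). The gains were 6 in class I, 3 in class III and 5 in class II. Of 9 regions over 2 kb, 0 were lost (15.7% over all chromosomes) and 3 were gained (33.3%, 12.1 to 64.6, against 3.84% over all chromosomes), namely chr6:33358801-33362800 (4.0 kb), chr6:33280001-33282400 (2.4 kb) and chr6:30736601-30739000 (2.4 kb). Common regions had nearly the same width as in A2780, with a median ratio of 1.05 (0.926 over all chromosomes).

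With shMBD3.26 no A2780 peak of the MHC was lost and 124 of 138 regions were gained (89.9%, 83.7 to 93.9). Over all chromosomes 18% of regions were gained and 34% were lost in the same comparison. The gains were 55 in class I, 40 in class III and 29 in class II, and they made up 64 of the 78 regions over 2 kb (82.1%, 72.1 to 89.0), a width at which 3.53% were gained and 13.7% lost over all chromosomes. The common regions were wider as well: 13 of 14 were wider than in A2780 and none was narrower, with a median ratio of 2.36. Over all chromosomes 5107 of 16176 were wider and 9848 were narrower, with a median ratio of 0.882. The widest gained region, chr6:32143001-32166000 in class III, was covered over its whole 23 kb, where shMBD3.232 had a peak of 0.8 kb and no other list had any. The next, chr6:31788801-31808000, was the 19.2 kb region described above. In class I chr6:30645801-30660600 (14.8 kb) and chr6:30684001-30696200 (12.2 kb), and in class II chr6:33163401-33177800 (14.4 kb) and chr6:33236401-33250400 (14.0 kb), were single wide peaks with no peak in any other list. The remaining wide class I region, chr6:30740201-30751400, had 11.2 kb with shMBD3.26 and 0.6 kb with shMBD3.232. In class III, chr6:31700401-31709800 was covered over 9.4 kb, with 2.6 kb in A2780cis and 0.4 kb in A2780.

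**Figure D4:**
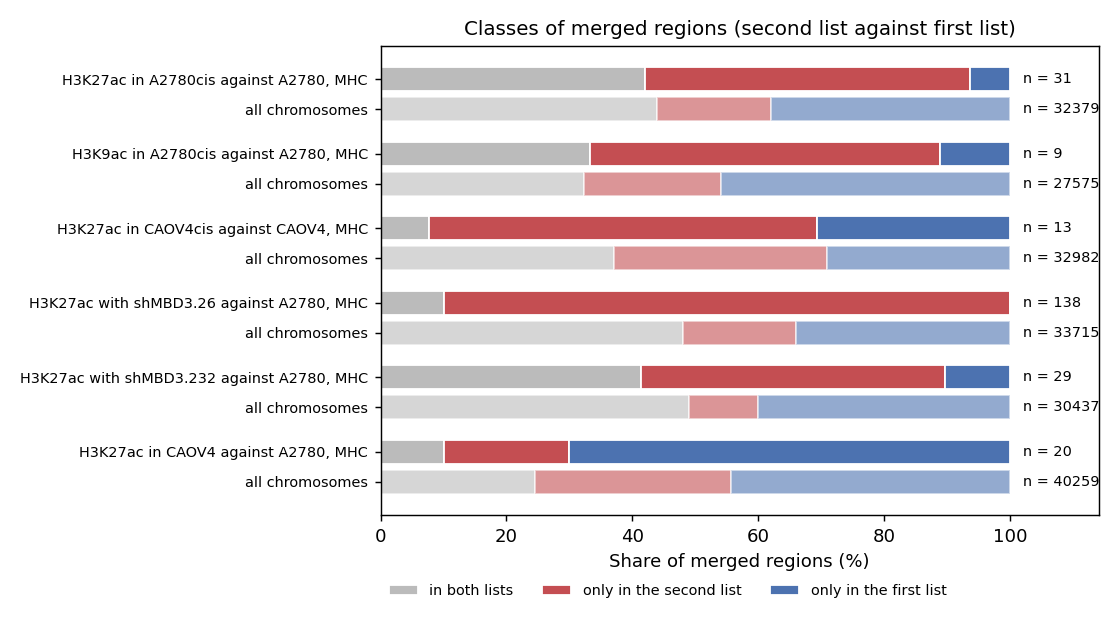
Share of merged regions (x axis, %) found in both lists, in the second list alone or in the first list alone, for 6 comparisons (rows), in the MHC and over all chromosomes, with the number of regions at the right. In the MHC the share found in the second list alone is above that over all chromosomes in every comparison but CAOV4 against A2780.

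The hairpins target the same gene, and their lists differed in the MHC. Against shMBD3.232, the shMBD3.26 list had 22 common regions, 116 of its own (84.1%, 77.0 to 89.2, against 30% over all chromosomes) and lacked none (0 of 138, against 16.2% over all chromosomes). All 22 common regions were wider with shMBD3.26, by a median ratio of 2.40, against 0.979 over all chromosomes (5927 of 14435 wider). In 11 of the 140 regions a peak was listed with both hairpins and not in A2780 (7.86%, against 1.08% over all chromosomes), 4 in class I, 3 in class III and 4 in class II. Both hairpin lists were compared with the same A2780 list. All 26 shMBD3.232 peaks of the MHC overlapped a shMBD3.26 peak. Every shMBD3.232 gain was therefore counted as shared, and the 7.86% is no separate measure of agreement between the hairpins. In class I the 11 regions included chr6:30292401-30296000 (3.6 kb with shMBD3.26, 1.0 kb with shMBD3.232), chr6:30456601-30458800 (2.2 and 0.6 kb), chr6:30729001-30739200 (10.2 and 4.2 kb) and chr6:30740201-30751400 (above). In class III they were the 23 kb and 19.2 kb regions and chr6:32119001-32124400 (5.4 and 0.4 kb). In class II they were chr6:32933601-32944000 (10.4 and 2.0 kb), chr6:33263401-33268800 (5.4 and 0.8 kb), chr6:33279401-33292200 (12.8 and 3.8 kb) and chr6:33358201-33364400 (5.2 and 4.0 kb). In each of the 11 the shMBD3.26 peaks covered more. No MHC region of A2780 was missing with both hairpins (13.6% of merged regions over all chromosomes were). None could be, because all 16 A2780 peaks of the MHC overlapped a shMBD3.26 peak.

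The shMBD3.26 peaks took in nearly all MHC peaks of the other lists, whatever the line or mark. All 16 peaks of A2780, all 31 of A2780cis, all 26 of shMBD3.232 and all 6 of CAOV4 overlapped a shMBD3.26 peak, against 60.0%, 66.6%, 77.7% and 43.3% of their peaks over all chromosomes. The same held for 8 of 9 CAOV4cis peaks (40.7% over all chromosomes), all 4 H3K9ac peaks of A2780 (59.8%) and 7 of 8 of A2780cis (71.5%). In the other direction 14 of the 138 shMBD3.26 peaks overlapped an A2780 peak (10.1%, 6.14 to 16.3), against 74.7% over all chromosomes. The overlap was 25 of 138 with A2780cis (18.1%, 12.6 to 25.4, against 64.0%) and 22 of 138 with shMBD3.232 (15.9%, 10.8 to 22.96, against 66.4%).

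**Figure D5:**
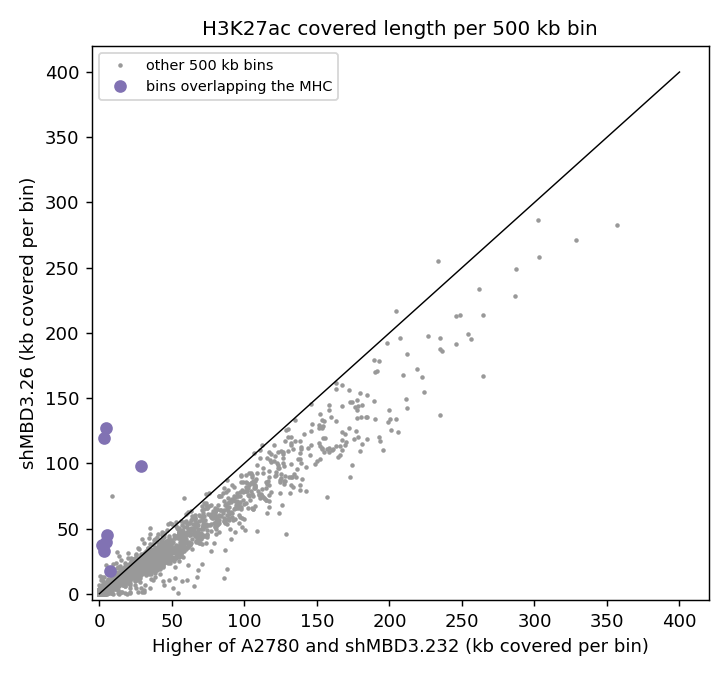
Length covered by H3K27ac peaks in shMBD3.26 cells (y axis, kb) against the higher of A2780 and shMBD3.232 cells (x axis, kb) for each of the 4118 bins of 500 kb with a peak, with the line of equal length. The 8 bins that overlap the MHC all lie above the line, which 17.6% of all bins do.

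When the whole genome was cut into 500 kb bins, the MHC bins took 7 of the 10 largest excesses of shMBD3.26 over the higher of A2780 and shMBD3.232, and 9 of the 10 lay on chromosome 6. The largest was in class I, chr6:30500001-31000000, with 127.2 kb covered against 0 kb in A2780 and 4.8 kb with shMBD3.232. The next, chr6:31500001-32000000 in class III, had 119.4 kb against 1.6 and 3.0 kb. Outside the MHC, chr6:28500001-29000000 had 75.2 kb against 8.8 and 2.4 kb. The largest excess off chromosome 6 was 39.0 kb, at chr13:67500001-68000000 (45.2 kb against 6.2 and 6.0 kb).

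Some stretches had no peak in any list. The longest was chr6:32213001-32525400, 312.4 kb from the end of class III into class II. Within the parts alone, the longest were chr6:29722001-29931600 in class I (209.6 kb), chr6:31941201-32055600 in class III (114.4 kb) and chr6:32300001-32525400 in class II (225.4 kb). Without the shMBD3.26 list the longest were 282.0 kb in class I, 290.8 kb in class III and 316.4 kb in class II. No peak in a list says only that the authors' caller listed none there.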

How the data were processed

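ChIP was performed on mononucleosomes with a Drosophila chromatin spike-in, and paired-end reads were sequenced. According to the methods section, alignment was done by the authors with Bowtie2 on Galaxy, followed by quantile normalization in a custom R program and MACS2 peak calling, which gave 1 list per sample. The labels name GRCh37 and hg19, and versions are not given in the sources used here. The deposited lists hold peak positions and a score that is 0 in every row, so the score was not used. All peak boundaries lie on a 200 bp grid, and no gap within a list is under 1000 bp, which limits how finely widths can be read. The lists hold 15365 to 28662 peaks each on the standard chromosomes, and 6 other peaks were left out. Read numbers per peak, and with them the precision of a peak, are unknown. Input libraries and control-hairpin cells were not analysed here.

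A peak belonged to a part by its midpoint, and covered length was cut at the boundaries. Peaks sharing at least 1 bp were merged. Shares have 95% Wilson intervals, and no test was made with 1 library per condition. Regions were named by rule: the 3 widest merged regions of each part, the 5 widest over 2 kb found in 1 list of a comparison in each direction, those over 2 kb shared by both resistant lines or both hairpins, and the widest empty stretches. Other regions (the class II edge, the recurring and H3K9ac regions and the narrow peaks) were chosen after their values were seen. The members and lists were chosen with earlier results of these data known. Merging was checked on copies of the A2780 H3K27ac list with different peaks removed from each. The shared peaks had identical positions there, so that partial overlaps were not tried. Peaks near gene promoters were left out for want of hg19 gene positions. The hairpin sequences came from the study's list of shRNAs. Alternatives were a 50% overlap, peaks over 2 kb and equal numbers of widest peaks. Python 3.11.15, numpy 2.4.6, SciPy 1.17.1 and matplotlib 3.10.9 were used.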

Additional observations from a re-analysis of the deposited data

Results flagged for a closer look

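The change of H3K27ac coverage in the class I part with cisplatin resistance differed in sign between the lines. The covered share of class I rose by 0.884 percentage points from A2780 to A2780cis, while from CAOV4 to CAOV4cis it fell by 0.0105 percentage points, which is 0.2 kb, the width of 1 step of the 200 bp grid. With 1 library per condition the difference was not tested.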

How the results depend on the processing

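Of 50 alternative values, 33 kept their direction and stayed within 1.5 times the reported value. With peaks over 2 kb, the covered share of CAOV4cis minus CAOV4 turned from 0.0421 to -0.0474 percentage points, and that of CAOV4 minus A2780 went from -0.663 to -0.347. With regions over 2 kb, gained and lost regions went to 9 and 0 in A2780cis (H3K27ac), 0 and 0 for H3K9ac, 0 and 1 in CAOV4cis, 3 and 0 with shMBD3.232 and 0 and 3 for CAOV4 against A2780, and gained regions with shMBD3.26 to 64, as fewer regions are counted. With equal numbers of widest peaks, lost regions went from 2 to 0 in A2780cis and from 3 to 1 with shMBD3.232. Without the shMBD3.26 list, an alternative added after the data were seen, the 140 merged regions became 48, and regions over 2 kb found in 1 list went from 44 to 5. The promoter alternative was not run. No paired analysis was possible because each condition has 1 library. Read depth, which the lists do not show, limits every absence of a peak.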
